A study of Homo sapiens with 6 samples.

Results

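The genes described here are 10 components of the chaperone machinery that holds steroid receptors ready for hormone. They are the immunophilin genes FKBP5 and FKBP4, the cyclophilin gene PPID, the HSP90 genes HSP90AA1 and HSP90AB1, and the cochaperone genes PTGES3, STIP1, ST13, HSPA4 and AHSA1. Their members on the array were chosen as every probe set that the platform annotation maps to 1 of these genes and to no other. This gave 24 probe sets of 8 genes, out of 49193 probe sets and 18129 genes in all. HSP90AB1 and AHSA1 had no probe set under that rule, so no change is given for either gene alone. Their promoter windows were searched, and a set shared by HSP90AB1 and a pseudogene is described at the end.

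RNA was taken from UMUC3-c31 cells, which carry the name of UMUC3, a line from a human bladder carcinoma, and each of 6 samples was hybridised to 1 Affymetrix array. All cells were first held for 24 h in serum stripped of steroids with charcoal. In the vehicle group, 3 samples received ethanol for 24 h. In the R1881 group, 3 samples received 10 nM R1881, a synthetic androgen, for 24 h. The origin of c31, and whether it is 1 clone, are not stated in the sources used here. The question of the comparison is which genes the androgen changes.

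A steroid receptor without hormone is held by HSP90 in a conformation that can bind ligand. HSP70 and its cofactors hand the receptor to HSP90 through the adaptor STIP1, and the small cochaperone encoded by PTGES3 (p23) stabilises the mature complex. Immunophilins with tetratricopeptide repeats then dock on the same HSP90 site: the product of FKBP4 favours receptor transport and signalling, while that of FKBP5 lowers hormone affinity of the glucocorticoid receptor. FKBP5 is itself a widely used steroid-responsive target gene, and much of its known control comes from sites in its introns, far from the start of the gene.

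Promoters of FKBP5 and HSP90AA1 are printed as examples of the motifs that a gene's start can hold. The HSP90AA1 start was chosen for its motif. Both FKBP5 starts and the HSP90AA1 start with a heat shock motif are given from RefSeq on GRCh38.p14, each 5′ to 3′ on the gene's strand, from 250 bases before the start to 50 after it. Capitals mark the receptor hexamer AGAACA, on either strand, and the heat shock motif GAANNTTC. The other HSP90AA1 start, not printed, holds neither of them.
FKBP5 upstream start, chr6:35728534-35728833, minus strand: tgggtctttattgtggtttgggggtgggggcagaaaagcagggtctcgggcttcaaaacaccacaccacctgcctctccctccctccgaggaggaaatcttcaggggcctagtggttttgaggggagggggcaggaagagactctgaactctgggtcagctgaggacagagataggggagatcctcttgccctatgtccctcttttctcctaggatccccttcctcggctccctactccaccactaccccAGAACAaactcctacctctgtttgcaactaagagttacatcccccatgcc
FKBP5 downstream start, chr6:35688866-35689165, minus strand: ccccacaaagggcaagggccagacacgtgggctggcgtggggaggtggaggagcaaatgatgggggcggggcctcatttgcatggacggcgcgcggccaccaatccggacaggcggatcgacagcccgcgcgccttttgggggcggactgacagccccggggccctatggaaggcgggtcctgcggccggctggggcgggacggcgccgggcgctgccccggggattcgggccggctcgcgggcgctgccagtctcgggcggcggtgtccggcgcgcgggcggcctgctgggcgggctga
HSP90AA1, chr14:102086995-102087294, minus strand: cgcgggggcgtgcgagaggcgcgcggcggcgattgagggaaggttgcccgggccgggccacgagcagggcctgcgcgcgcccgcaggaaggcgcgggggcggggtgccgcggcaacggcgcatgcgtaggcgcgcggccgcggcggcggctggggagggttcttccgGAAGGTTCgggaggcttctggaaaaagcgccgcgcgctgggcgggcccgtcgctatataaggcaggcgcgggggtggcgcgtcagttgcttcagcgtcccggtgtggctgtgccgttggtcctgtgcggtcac

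RefSeq windows were found for 8 of the 10 genes, 14 windows in all, and none for FKBP4 or ST13. The full palindrome of the glucocorticoid response element class is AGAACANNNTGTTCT, an inverted repeat of the hexamer. It was in none of the 14 windows and in 1 of 35116 windows over all genes. The single hexamer AGAACA was in 5 of the 14, among them the upstream FKBP5 window, against 14.8% of all windows. The 2 AHSA1 windows overlap and share 1 site, so these 5 windows hold 4 distinct sites. The heat shock motif GAANNTTC was in 2 of the 14, 1 each of HSP90AA1 and HSP90AB1, against 6.77% of all windows. Both of those also held the longer form GAANNTTCNNGAA, which contains the shorter one and was in 0.49% of all windows. Both strands were searched, and a match is a description of letters, not a bound site.

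On the arrays, FKBP5 was the 1 gene among the 8 measured whose transcript passed the test, and it rose 2.80-fold. Over all probe sets, 1.54% passed the threshold (limma, two-sided, Benjamini-Hochberg adjusted p under 0.05 over the 49193 probe sets). Of the 24 chaperone sets 5 passed, all of them FKBP5 sets and all higher with R1881, where 1.12% of all sets were called higher. The other 18 sets, covering 7 genes, gave no call by limma, with 5 at an unadjusted p under 0.05, all lower, where 12.5% of all sets had one. Counted once per gene on its brightest probe set, 1 of 8 genes passed, beside 1.9% of all genes.

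Values are log2 RMA values, normalized between arrays by the authors, so that 1 unit is a doubling of signal. On the brightest FKBP5 set (11739567_s_at) the vehicle arrays read 8.58, 8.48 and 8.60 and the R1881 arrays 10.07, 10.01 and 10.04. The lowest R1881 array stood 1.41 above the highest vehicle array. The means were 8.55 ± 0.06 (SD, n = 3) and 10.04 ± 0.03 (SD, n = 3), and the change was 1.49 ± 0.05 (SE, limma adjusted p = 8.56e-05). This is 2.80-fold, with a 95% confidence interval of 2.57 to 3.05. An exact two-sided permutation test over the 6 arrays, taken as unpaired, gave p = 0.10, the smallest it can give. The arrays read bulk RNA, so more cells with the transcript and more transcript per cell cannot be told apart. Among the 18129 genes, each on its brightest set, FKBP5 had the 11th largest rise.

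The FKBP5 response was seen on 5 of the gene's 6 probe sets. Set 11743917_a_at read 7.15, 7.17 and 7.06 with vehicle and 8.69, 8.56 and 8.58 with R1881, a change of 1.48 ± 0.06. Set 11739565_a_at read 5.94, 5.78 and 5.76 against 7.18, 7.10 and 7.10, a change of 1.30 ± 0.06. Each of these sets kept a gap between the groups of more than 1 log2 unit. Set 11739566_a_at read 5.09, 5.22 and 5.03 against 6.71, 6.54 and 6.63, a change of 1.51 ± 0.07. Set 11746275_a_at read 5.34, 5.44 and 5.34 against 7.12, 6.90 and 6.92, a change of 1.61 ± 0.07. The changes of the 5 sets thus lay between 1.30 and 1.61, with adjusted p of 8.56e-05 to 1.98e-04. R1881 replicate 1 was the highest array on all 5 sets.

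The sixth FKBP5 set, 11739084_at, gave no response. It read 2.73, 2.71 and 2.73 with vehicle and 2.77, 2.73 and 2.73 with R1881. These values lie below the background level of 5.10, which is the 90th percentile of 484 probe sets of olfactory receptor and keratin-associated protein genes. The vehicle mean of 11739566_a_at (5.11) lay just above this level, with 2 of its 3 vehicle arrays below it. The set 11739567_s_at carries an s in its name, which marks probes shared by several transcripts, and the other FKBP5 sets carry neither s nor x.

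**Figure D1:**
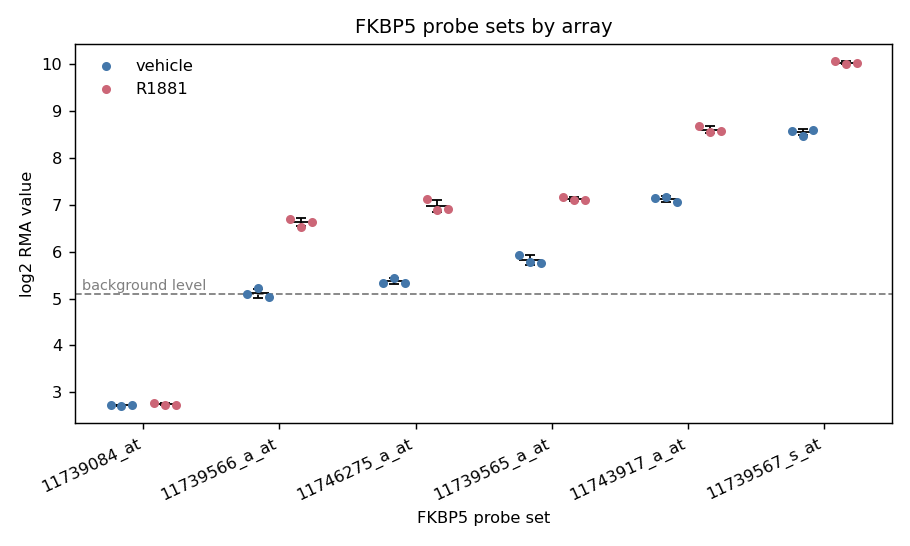
FKBP5 probe sets by array. The vertical axis is the log2 RMA value, points are the 3 vehicle (blue) and 3 R1881 (red) arrays, black marks are the mean and SD, and the dashed line is the background level of 5.10. On 5 sets all R1881 arrays lie above all vehicle arrays, and on 11739084_at both groups lie near 2.7, below background.

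FKBP4, the immunophilin gene most like FKBP5, did not pass the test on any of its 3 sets. Its brightest set (11744683_s_at) read 9.57, 9.67 and 9.67 with vehicle and 9.74, 9.68 and 9.68 with R1881. The groups were separated by 0.01, the rounding step of the values. The change was 0.06 ± 0.05 (SE, limma adjusted p = 0.653), with a 95% interval of -0.06 to 0.19 on the log2 scale. The second set (11736021_a_at) changed by 0.04 ± 0.06 with overlapping groups, and the third (11736022_at) lay below background at 3.28 and 3.27.

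The FKBP5 to FKBP4 ratio was then compared within each array, which cancels any scaling factor of that array. Since probe affinity sets the offset between 2 probe sets, only its change is read. FKBP5 minus FKBP4 was -0.99, -1.19 and -1.07 on the vehicle arrays and 0.33, 0.33 and 0.36 on the R1881 arrays. It moved by 1.42 toward FKBP5, with a 95% confidence interval of 1.26 to 1.59 on 4 degrees of freedom, and the groups did not overlap.

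The same shift was computed against each of the 7 measured partner genes. It ran from 1.42 (FKBP4) to 1.66 (HSP90AA1, interval 1.44 to 1.88). Between them lay PPID at 1.48, PTGES3 at 1.53, ST13 at 1.54, STIP1 at 1.56 and HSPA4 at 1.61. In all 7 pairs the R1881 arrays lay above the vehicle arrays. The exact two-sided permutation p was 0.10 for each, also after Benjamini-Hochberg adjustment over the 7 pairs. This is the smallest p that unpaired arrays allow here. The pairs share the FKBP5 values and are not independent of each other.

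**Figure D2:**
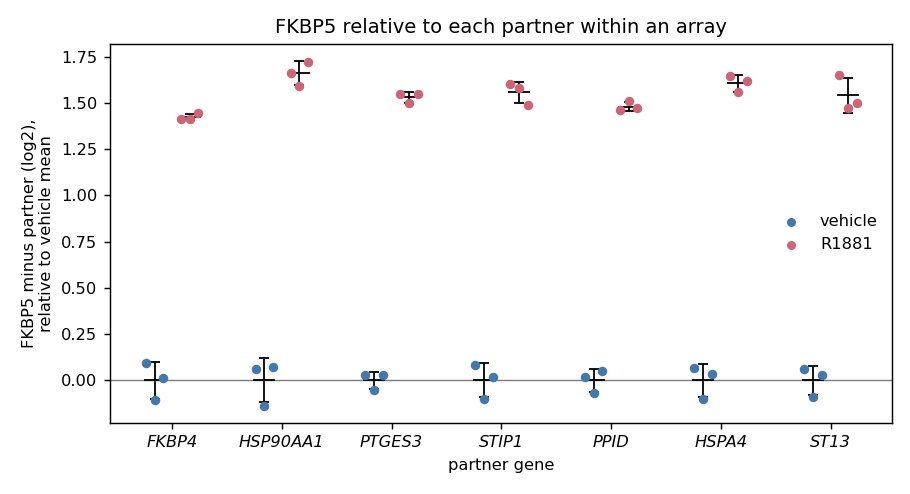
FKBP5 relative to each of 7 partner genes within an array. The vertical axis is the log2 difference of the brightest sets, set to 0 at the vehicle mean; points are arrays (blue vehicle, red R1881) and black marks the mean and SD. For every partner the 3 R1881 arrays lie above the 3 vehicle arrays, with means between 1.42 and 1.66.

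PPID, which encodes cyclophilin 40 (an HSP90-binding immunophilin of another fold), showed the smallest change of the 8 genes. Its only set (11742882_at) read 9.31, 9.30 and 9.30 with vehicle and 9.36, 9.25 and 9.32 with R1881. The vehicle arrays lay inside the range of the R1881 arrays. The change was 0.01 ± 0.05 (SE), with a 95% interval of -0.11 to 0.12. Its sign turned to -0.01 when the arrays were re-centred on their medians.

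HSP90AA1, the stress-inducible cytosolic HSP90 gene, was measured on 2 sets, both with lower values after R1881. Set 11732996_at read 9.97, 9.87 and 9.95 with vehicle and 9.73, 9.70 and 9.73 with R1881. The brighter set 11758308_s_at read 12.88, 12.98 and 12.89 against 12.77, 12.78 and 12.68. On both sets every R1881 array lay below every vehicle array, by at least 0.14 and 0.10. The changes were -0.21 ± 0.05 and -0.17 ± 0.05 (SE), or 86.5% and 88.7% of the vehicle signal. Neither passed the threshold over all probe sets (limma adjusted p = 0.124 and 0.254). With a trended, robust prior variance both sets passed (limma adjusted p = 0.0168 and 0.0345). Without dim probe sets 11732996_at passed (0.0403) and the brighter set did not (0.107), and the mean of both sets passed among genes (0.0437), so the call depends on the fit.

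PTGES3, the p23 cochaperone gene, had 4 sets, all with s or x in their names and all with lower values after R1881. The brightest (11743372_s_at) read 12.94, 12.92 and 12.96 against 12.91, 12.90 and 12.88, a change of -0.04 ± 0.04 (SE). The dimmest (11751818_x_at) read 11.57, 11.55 and 11.60 against 11.39, 11.30 and 11.37, a change of -0.22 ± 0.05 (limma adjusted p = 0.105). The groups did not overlap on any of the 4 sets, although the gap on the brightest was 0.01. The changes of the other 2 sets were -0.10 ± 0.05 each. The x set passed with a trended, robust prior (adjusted p = 0.00536) and without dim probe sets (0.0328), the brightest set under neither.

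HSPA4, a relative of HSP70 that acts as its nucleotide exchange factor, had 4 sets with values lower by 0.11 to 0.21. The brightest (11717255_x_at) read 10.61, 10.68 and 10.66 with vehicle and 10.52, 10.55 and 10.52 with R1881, a change of -0.12 ± 0.05 (limma adjusted p = 0.355). Set 11751837_a_at read 9.08, 9.0 and 8.90 against 8.76, 8.76 and 8.84, a change of -0.21 ± 0.06 (adjusted p = 0.225). The groups were apart on these 2 sets and overlapped on the other 2. The dimmest set (11758770_at) had the widest spread of all the chaperone sets, with SDs of 0.17 and 0.22. Its change of -0.14 lay between -0.265 (without R1881 replicate 3) and -0.06 (without R1881 replicate 2), and was -0.07 without vehicle replicate 3 and -0.23 without vehicle replicate 2. That of 11717254_at moved from -0.11 to -0.055 without R1881 replicate 1.

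STIP1 (HOP), the adaptor between HSP70 and HSP90, had overlapping groups on both sets. Its brightest set read 10.18, 10.26 and 10.26 against 10.15, 10.11 and 10.23, a change of -0.07 ± 0.05 (SE), and the other changed by -0.03 ± 0.05. ST13 (HIP), which stabilises HSP70 bound to its client, also overlapped on both sets. Its brightest set read 10.78, 10.83 and 10.83 against 10.68, 10.80 and 10.80, a change of -0.05 ± 0.05, with R1881 replicate 1 the lowest array. The other ST13 set changed by -0.01 ± 0.04.

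**Figure D3:**
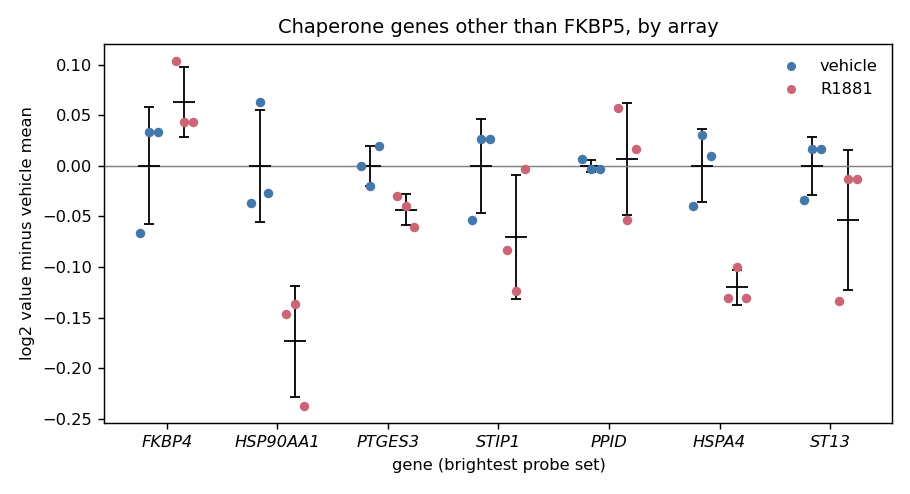
The 7 measured chaperone genes other than FKBP5, on their brightest sets. The vertical axis is the log2 value minus the vehicle mean, points are arrays (blue vehicle, red R1881), and black marks are the mean and SD. The groups are apart for HSP90AA1 and HSPA4, by 0.01 for FKBP4 and PTGES3, and overlap for STIP1, PPID and ST13.

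Taken as a list, the 18 sets outside FKBP5 had a median change of -0.09, and 15 of them were lower by sign, beside a median of 0 over all probe sets. The groups did not overlap on 9 of the 18 (8 lower and 1 higher), beside 16.8% of all probe sets, 9.08% lower. Most of these sets are bright, 15 of the 18 having a mean of at least 9 on the log2 scale, a limit chosen after the values were seen. Of all probe sets that bright, 34.8% did not overlap and 23.2% were lower without overlap. Of the 15 such chaperone sets, 8 did not overlap and 7 of those were lower. The 4 PTGES3 sets measure 1 gene and are not independent. Counted by gene on brightest sets, 4 of 7 did not overlap, 3 of them lower, beside 18.5% and 9.93% of all genes. Over the 7 genes the 95% intervals of the change ran from -0.30 at the lowest to 0.19 at the highest, so the highest of these bounds is a 1.14-fold rise.

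**Figure D4:**
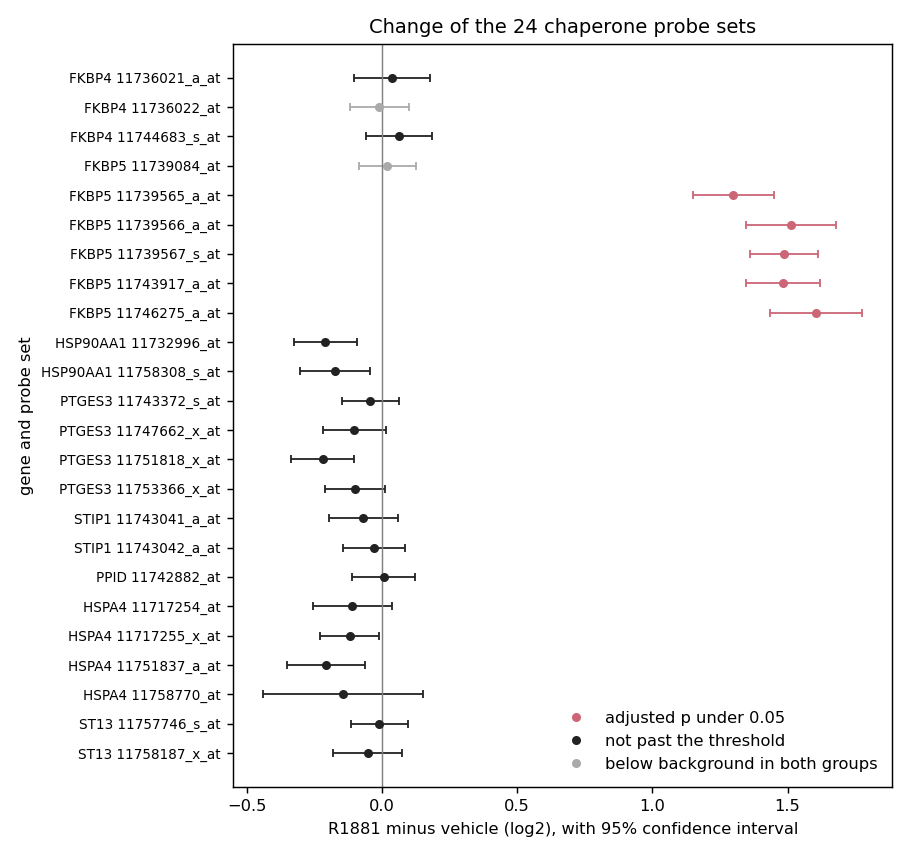
Change of all 24 probe sets, as R1881 minus vehicle on the log2 scale with the 95% confidence interval of the limma fit. Red sets passed the threshold, black ones did not, and grey ones lay below background in both groups. The 5 red FKBP5 sets lie between 1.30 and 1.61, and the sets of the other genes between -0.22 and 0.06.

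The wider families were read from lists of related genes, each gene on its brightest set. Of 14 other FKBP genes measured, 1 fell, none rose and 13 did not pass, where 1.9% of all genes passed in either direction. Their median change was 0.03, beside 0 over all genes. An unadjusted p under 0.05 was found for 3 of them, where 13% of all genes had one. Of these 3, 2 were higher (FKBP1A and FKBP1B) and 1 lower. FKBP7, which encodes a peptidyl-prolyl isomerase of the endoplasmic reticulum, read 7.45, 7.38 and 7.36 with vehicle and 6.99, 7.10 and 7.09 with R1881. It fell by 0.34 ± 0.05 (limma adjusted p = 0.0338). The call was lost whichever array was left out (adjusted p between 0.109 and 0.125) and with the replicate number as a block (0.136). It was also lost with the mean of the FKBP7 probe sets, where the change was -0.23 (limma adjusted p = 0.117). The largest rise by size was in FKBP1A, the immunophilin targeted by FK506 and rapamycin, at 0.20 ± 0.07 (adjusted p = 0.286). FKBP5 was thus the 1 FKBP gene of the 16 measured that rose past the threshold.

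Among 27 measured HSP70, HSP40 and exchange factor genes, BAG3 alone passed by limma, beside 1.9% of all genes, and the median change was 0. In this list 5 genes had an unadjusted p under 0.05, 1 higher and 4 lower, where 13% of all genes had one. BAG3, an HSP70 exchange factor that routes clients to autophagy, read 10.45, 10.48 and 10.48 against 10.92, 10.92 and 10.93. It rose by 0.45 ± 0.04 (limma adjusted p = 0.00377), or to 137% of vehicle, and the groups were far apart for their spread. The largest fall by size was in HSPA4L, a relative of HSPA4, at -0.27 ± 0.07 (adjusted p = 0.168). The constitutive HSP70 gene HSPA8 stood at -0.04 ± 0.04 and the heat-inducible DNAJB1 at -0.10 ± 0.05.

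None of the 22 other HSP90 and cochaperone genes measured passed by limma (4 at an unadjusted p under 0.05, all lower, where 13% of all genes had one), and their median change was -0.04. The largest fall by size was in FNIP1, a cochaperone that slows the HSP90 ATPase, at -0.25 ± 0.05 (adjusted p = 0.0656). The largest rise was in SGTA, a tetratricopeptide cochaperone, at 0.12 ± 0.10. Among 15 other cyclophilin genes none passed by limma (5 at an unadjusted p under 0.05, 1 higher and 4 lower, beside the same 13%), with a median of -0.06 and a range from -0.20 ± 0.05 in PPIL3 to 0.16 ± 0.05 in PPIC.

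Receptor genes and heat shock factor genes gave no call over all probe sets either. Of 5 steroid receptor genes measured, 1 had an unadjusted p under 0.05, and of 3 heat shock factor genes none. NR3C1, the glucocorticoid receptor gene and a client of this complex, read 10.34, 10.39 and 10.43 against 10.61, 10.62 and 10.69, a change of 0.25 ± 0.05 (limma adjusted p = 0.0750). NR3C2 and PGR lay below background in both groups, and ESR1 (5.20 and 5.26) and ESR2 (5.18 and 5.15) just above it. HSF1, the main heat shock transcription factor gene, stood at 0.10 ± 0.08 and HSBP1, its binding inhibitor, at -0.06 ± 0.05.

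**Figure D5:**
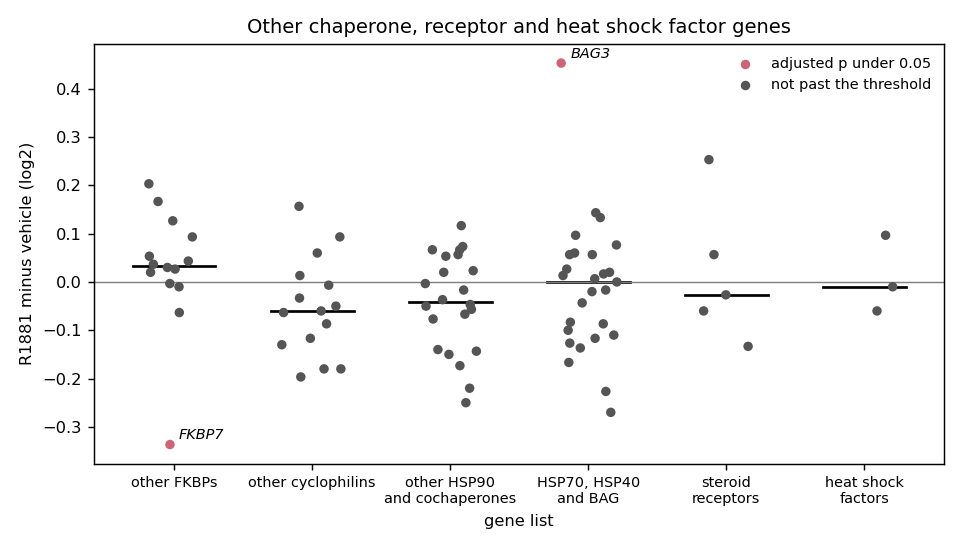
Change of 86 related genes in 6 lists. The vertical axis is R1881 minus vehicle on the log2 scale, each point is a gene on its brightest set, black bars are list medians, and red points passed the threshold. BAG3 (0.45) and FKBP7 (-0.34) are the 2 red points, and every list median lies between -0.06 and 0.03.

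The named genes whose values followed FKBP5 most closely were found by the Euclidean distance of mean-centred log2 values over the 6 arrays, among genes above background. Unnamed loci and antisense, microRNA, small RNA and long intergenic RNA genes were left out. The nearest genes were SNAI2 (distance 0.16), EPAS1 (0.23), KANK1 (0.26), RIPK4 (0.27) and TNFAIP3 (0.27). SNAI2 read 5.97, 5.93 and 5.97 against 7.45, 7.41 and 7.60. The distance rests mainly on the size of the difference between the groups and is a description of these 6 arrays.

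The cells were compared with markers of their labelled tissue. None of 11 urothelial markers lay above background in either group, CDH1, EPCAM and the uroplakin genes among them, while VIM, CDH2, ZEB1, KRT8 and KRT18 all did. Of these 5, KRT18, a keratin of simple epithelia, fell by 0.37 ± 0.05 with R1881 (limma adjusted p = 0.0152), and the others did not pass. None of 6 fibroblast markers and 2 of 6 immune and endothelial markers (CD68 and VWF) lay above background. VWF was at the level itself, with a vehicle mean of 5.07 below it and R1881 arrays of 5.26, 5.06 and 5.07. The array medians were 5.49 to 5.51. On the second principal component (19.6% of the variance) vehicle replicate 1 stood away from its group. Without it the FKBP5 sets all kept their call and no other chaperone set gained one.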

How the data were processed

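The authors deposited 1 log2 value per probe set and array, made with RMA (background correction, quantile normalization and summary of a set's probes), per the submitters' processing notes. The RMA version was not stated there, and the values are rounded to 2 decimals. RMA would remove a shift shared by all transcripts. Scanner files were not used here, so background is known only through the proxy level, and 3 arrays per group limit the precision. The design text calls these biological replicates.

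Probe sets were named from the platform annotation: 44898 had 1 gene, 1825 several and 2470 none listed. Sets with several genes were left out of the members. R1881 was compared with vehicle over all probe sets with limma 3.58.1 in R 4.3.3 (lmFit, eBayes, no trend, no filter), and the fit was tested on simulated data. A gene was represented by its set with the highest mean over all 6 arrays. Within-array differences were tested by exact permutation. Named genes were the measured members, each list's called genes and largest change each way, and the 5 genes nearest FKBP5. Values of HSPA8, DNAJB1, HSBP1 and the steroid receptors were added after they were seen. Some planned gene results are not reported here. Members and lists were chosen with earlier results of these data known.

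Both groups are numbered 1 to 3. Deviations from the group means correlated between same-numbered arrays at 0.16, 0.13 and 0.10 over the 27041 probe sets above background. Each was over 0.1, so the replicate number was fitted as a block among the alternatives. Arrays of different numbers were not compared in this way, so these values cannot show that the numbers pair the arrays. The labels do not state a pairing. The main fit and the permutation tests over 6 arrays treated the arrays as unpaired. Alternatives were re-centring, a second quantile normalization, a trended robust prior, a filter on dim sets, array weights, the replicate block, 1 set or the mean of sets per gene, no s or x sets, and leaving out each array.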

Additional observations from a re-analysis of the deposited data

How the results depend on the processing

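The FKBP5 rise kept its direction and its call in all 15 alternatives, at 1.24 to 1.51 with adjusted p of 3.38e-07 to 0.00252. The lowest value is the mean of its probe sets, which includes the set below background. The FKBP5 to FKBP4 shift was 1.37 to 1.47 without any 1 array and 1.42 with the replicate block, where 3 pairs allow no exact p under 0.25. It was 1.21 with the mean of a gene's sets, 1.45 without s and x sets, and was not computed with the trended prior, array weights or 1 set per gene. The chaperone calls were 5 sets and 1 gene without any 1 array. A trended robust prior gave 8 sets (5 higher, 3 lower) and 2 genes, leaving out dim sets gave 7 sets (5 higher, 2 lower) and 1 gene, and the mean of a gene's sets also gave 2 genes. HSP90AA1 was the added gene with the trended prior and with the mean of sets. With 1 set per gene the sets could not be counted, and without s and x sets PTGES3, ST13 and BAG3 had no set left.

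Calls over all features moved from 759 to 1525 with the trended robust prior, 1389 without dim sets, 372 with the replicate block, 438 with 1 set per gene, 470 with mean sets, 464 without s and x sets, and 302 to 406 without any 1 array. Calls among the related genes moved from 2 to 7 with the trended prior, 4 without dim sets, 4 with 1 set per gene, 1 with the replicate block and 1 without any 1 array. The count stayed at 2 with mean sets (2 higher) and without s and x sets (1 higher, 1 lower). In both of these a related gene other than BAG3 was called higher, so the called genes were not the same. The replicate block changed no call among the 24 chaperone sets. The signs that turned were all of values near 0. PPID stood at -0.0067 after re-centring and between -0.0183 and 0.0367 without any 1 array. FKBP4 set 11736021_a_at lay between -0.0133 and 0.0767 without any 1 array and set 11736022_at between -0.02 and 0.01. ST13 set 11757746_s_at stood at 0.0025 after a second quantile normalization and between -0.0217 and 0.0033 without any 1 array. For the counts that moved, the cause was not tested beyond the number of sets or arrays in the fit.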

Other observations

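The annotation lists 3 further probe sets for a chaperone gene together with pseudogenes, and their signal cannot be assigned to either. The set listed for HSP90AB1 and HSP90AB3P read 12.69, 12.75 and 12.69 with vehicle and 12.71, 12.67 and 12.64 with R1881, with overlapping groups and a difference of -0.04 ± 0.05 (SE, limma adjusted p = 0.786). The 2 sets listed for ST13 with its pseudogenes differed by -0.03 ± 0.05 and -0.07 ± 0.06, also with overlapping groups.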
